A study of Mus musculus with 24 samples.

Results

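Ribosome biogenesis genes of the nucleolus were measured over 46 h in MMH-D3, a line of immortalized hepatocytes from the mouse, after a serum shock. The genes were those whose array symbol begins with Nop, Nol, Utp or Rrp and a number, the RNA polymerase I subunits Polr1a to Polr1e, and a fixed set of named factors: Imp3, Imp4, Pes1, Bop1, Wdr12, Npm1, Ncl, Fbl, Dkc1, Gar1, Nhp2, Gnl2, Gnl3, Gnl3l, Nip7 and Bysl. The rule uses names and no measured value. It found 58 genes with 128 probe sets among the 18193 genes that the array names singly. Of these, 55 reached a log2 value of 5 on at least 6 arrays, as did 9825 genes in all. Nol3 (4.17 to 5.38, at or above 5 on 4 arrays), Utp14b (2.53 to 2.76) and Nol4 (2.17 on every array, the lowest value of the table) did not. Of those that did, Polr1a (6.37 to 7.54) and Rrp12 (5.65 to 7.77) had the lowest means, 6.79 and 7.01. Nol3, Nol4 and Nol4l enter by name alone. Utp14b is a retrotransposed copy of Utp14a known from the mouse testis.

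The 24 samples were single arrays taken every 2 h from 12 to 58 h, with no replicate at any time. All of them share the same treatment: confluent cells were held in medium with 2% DMSO for 14 days before the serum shock, in which a pulse of serum brings the clocks of the cells into phase. The series has no unshocked sample and 1 cell line. Values are log2 GCRMA values, and a change of 1 is a doubling.

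Ribosomes are assembled in the nucleolus. RNA polymerase I transcribes a long precursor of the ribosomal RNAs, small nucleolar RNPs modify it, and large transient particles fold and cut it into the small and the large subunit, together with the ribosomal proteins. The assembly factors leave the particles and are used again. Their genes respond to growth signals, among them the transcription factor MYC, and in liver the pathway is known for its activity when hepatocytes grow or regenerate.

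MYC and its partner MAX bind the DNA letters CACGTG, which read the same on both strands. Promoters from RefSeq (GRCm38.p6), 250 bases before to 50 after the start, were at hand for 44 of the 55 genes, and 9 of the 44 held these letters (20.5%), against 12.3% of the genes past the filter and 8.09% of all genes in the table. A match describes the letters only and shows no binding. The 3 promoters shown here belong to genes that were higher at 44 to 50 h than at 36 to 42 h and have a single promoter in the table with the motif before the start: Utp18 and Nol11, small subunit factors, and Nop2, a large subunit factor. Each is the 250 bases before the start, 5′ to 3′ on the gene's strand, with the motif in capitals. Utp18 lies at chr11:93885767-93886016 on the minus strand, Nop2 at chr6:125131633-125131882 on the plus strand and Nol11 at chr11:107189382-107189631 on the minus strand. The first base of the motif lies 20 bases before the start in Utp18, 60 in Nop2 and 43 in Nol11.
Utp18: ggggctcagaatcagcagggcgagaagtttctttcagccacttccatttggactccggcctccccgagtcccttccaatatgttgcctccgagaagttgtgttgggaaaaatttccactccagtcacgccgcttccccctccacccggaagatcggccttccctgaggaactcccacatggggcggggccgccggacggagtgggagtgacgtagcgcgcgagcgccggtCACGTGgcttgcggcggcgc
Nop2: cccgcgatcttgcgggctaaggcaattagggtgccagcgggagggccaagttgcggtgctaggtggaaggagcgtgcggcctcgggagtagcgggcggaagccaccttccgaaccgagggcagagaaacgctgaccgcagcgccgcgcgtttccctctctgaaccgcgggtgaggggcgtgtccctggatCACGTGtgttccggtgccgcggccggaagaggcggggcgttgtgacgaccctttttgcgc
Nol11: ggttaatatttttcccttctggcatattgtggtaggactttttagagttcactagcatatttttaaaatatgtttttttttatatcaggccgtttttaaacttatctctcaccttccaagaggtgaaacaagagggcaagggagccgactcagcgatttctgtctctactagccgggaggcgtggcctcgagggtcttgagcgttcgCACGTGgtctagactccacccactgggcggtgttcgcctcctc

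For the comparisons the arrays were taken in 6 consecutive blocks of 8 h, with 4 arrays each (12 to 18, 20 to 26, 28 to 34, 36 to 42, 44 to 50 and 52 to 58 h). Arrays of a block are successive times and not replicates, and nothing in the labels says that they came from separate cultures. The p-values therefore measure the scatter between these arrays within blocks. They come from limma, with Benjamini-Hochberg adjustment over the 18526 probe sets kept, and a gene was called at an adjusted p under 0.05. In bulk RNA, fewer cells of a type and less RNA per cell cannot be told apart.

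The array at 40 h had the lowest median over the kept probe sets (8.96, against 9.04 to 9.14 on the others), and its label alone carries an added suffix whose meaning is not given. Its share of values at the table's minimum was also the lowest (39.3%), close to that at 18 h (39.6%), while its median correlation with the other arrays, 0.983, lay within their range. The counts of called genes across 42 to 44 h are given with and without it. So are the changes there of the 11 genes for which it was the lowest array. Albumin averaged 15.97 ± 0.245 (SD, n = 24) and Hnf4a 11.93, and 8 of 13 hepatocyte markers on the array passed the filter, whereas Apoa2, F2, Tat and Cps1 lay at or near the lowest value. All 4 bile duct markers passed it, with Krt19 at 15.44, and of 9 fibroblast and stellate cell markers and 5 endothelial markers none did. Of 7 macrophage markers, Cd14 (14.79), Cd68 (6.15) and Csf1r (5.37) passed, while Ptprc, Adgre1, Clec4f and Marco did not.

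As a group, the 55 genes drifted down until about 34 h and stood highest at 46 h. Their mean deviation from each gene's own mean was 0.04 at 12 to 18 h, −0.03 at 20 to 26 h, −0.21 at 28 to 34 h, −0.16 at 36 to 42 h, 0.22 at 44 to 50 h and 0.15 at 52 to 58 h. The lowest single array was that at 34 h (−0.25) and the highest that at 46 h (0.32), with −0.08 at 42 h and 0.08 at 44 h between them. The mean of all 9825 genes stayed between −0.05 and 0.06 over the same blocks. The lowest array of a gene lay at 28 to 42 h in 39 of the 55 genes (70.9%, against 35% of all genes), and the highest at 44 to 58 h in 38 (69.1%, against 40.4% of all genes). The highest array was that at 46 h in 19 genes and that at 44 h in 1, and shares of all genes were not counted for these single arrays.

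**Figure D1:**
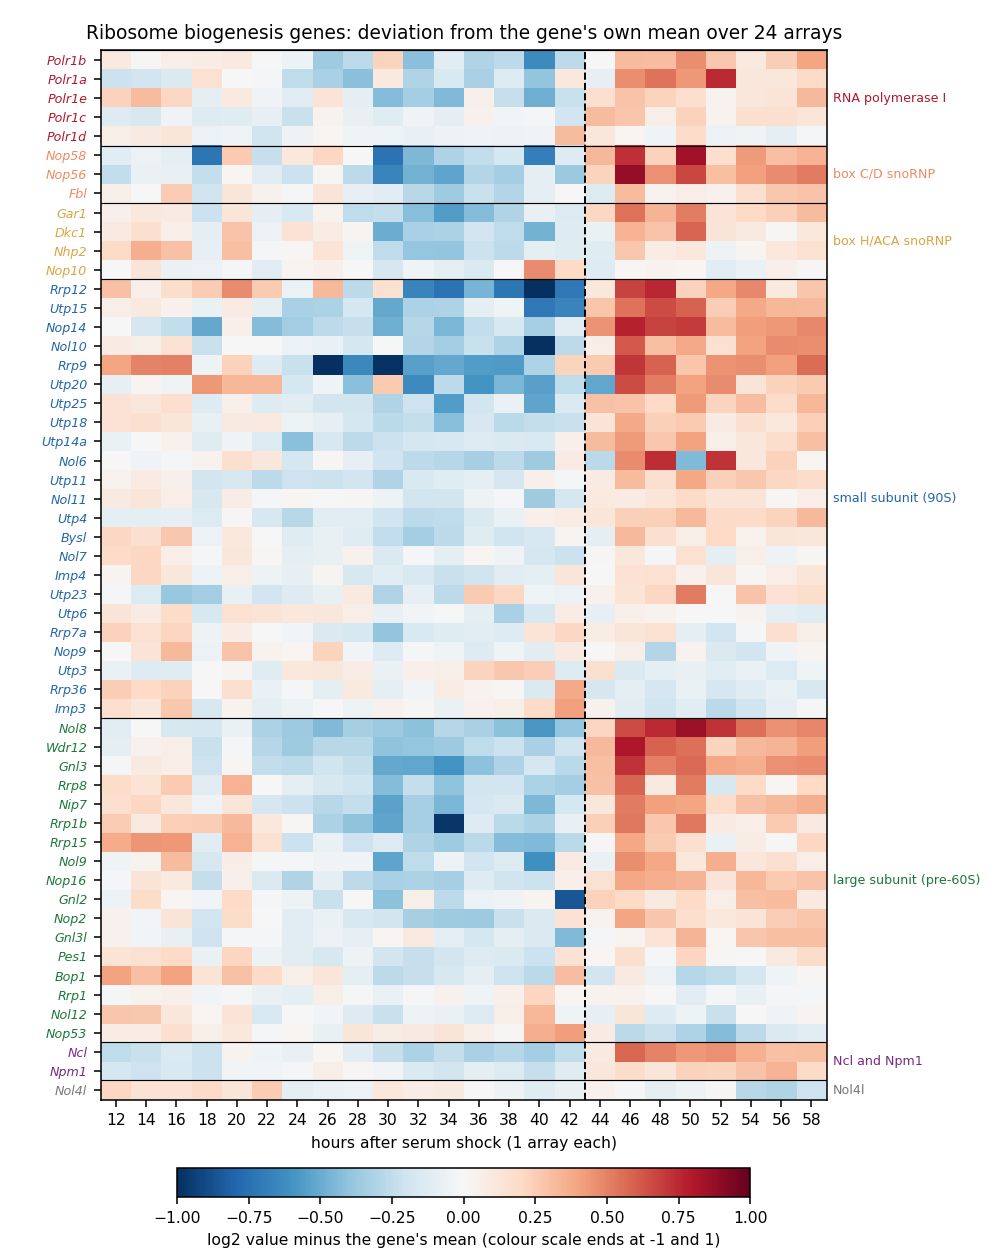
Deviation of each of the 55 genes from its own mean log2 value (colour, ending at −1 and 1) on the 24 arrays, in hours after the serum shock from left to right. Genes are grouped by role and ordered within a role by their change across the dashed line between 42 and 44 h, and most rows turn from blue at 28 to 42 h to red from 44 or 46 h on.

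The comparison of 44 to 50 h with 36 to 42 h held most of the change. Of the 55 genes, 35 were higher at 44 to 50 h, 2 were lower and 18 were not called. Among all genes, 20.5% were higher and 12.7% lower. The median change of the 55 was 0.36, against 0.04 over all genes. In 30 of the 55, all 4 arrays at 44 to 50 h lay above all 4 at 36 to 42 h, as did 15.5% of all genes, and in none did all lie below, as in 8.89% of all genes. Without the 40 h array 32 were higher and 3 lower: Polr1a, Nhp2 (0.28, adjusted p = 0.0529) and Nol9 (0.30, adjusted p = 0.104) were then not called, and Rrp36 was lower (−0.27, adjusted p = 0.0248). Other genes lowest on that array were still called higher, with smaller changes than with it. They were Polr1b (0.55), Polr1e (0.345), Utp15 (0.78), Nol8 (0.99), Ncl (0.68), Npm1 (0.28), Rrp15 (0.53) and Nol11 (0.20), with Rrp12 and Nol10 given below.

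Neighbouring arrays differed at several points of the course. The mean of the 55 rose from −0.23 at 40 h to −0.08 at 42 h, against −0.09 and 0.05 for all genes. Earlier it rose from −0.09 at 18 h to 0.11 at 20 h, against −0.06 and −0.01 for all genes. On the 44 h array 36 of the 55 genes were higher than on the 42 h array (65.5%, against 49.4% of all genes). On the 46 h array 45 were higher than on the 44 h array (81.8%, against 49.9% of all genes), and the mean of the 55 differed more between these arrays (0.32 at 46 h, against 0.08 at 44 h) than between 44 h and 42 h (0.08, against −0.08). The largest change between any 2 neighbouring arrays was upward from 42 to 44 h in 11 genes (20%, against 9.79% of all genes) and upward from 44 to 46 h in 8 (14.5%, against 3.31%).

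**Figure D2:**
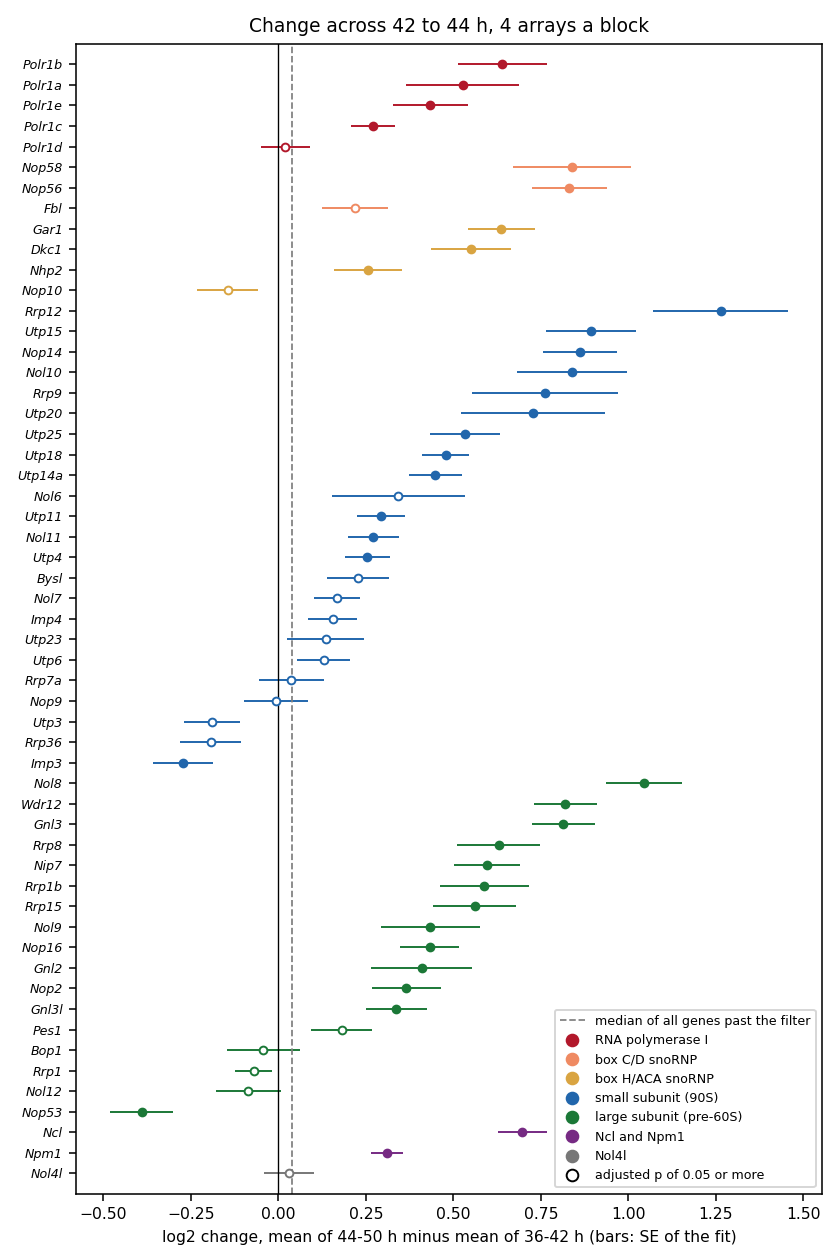
Log2 change of each of the 55 genes, mean of the 4 arrays at 44 to 50 h minus mean of the 4 at 36 to 42 h, with bars for the standard error of the fit and filled points for an adjusted p under 0.05. The RNA polymerase I subunits lie between 0.02 and 0.64, the small subunit factors between −0.27 (Imp3) and 1.26 (Rrp12), and the large subunit factors between −0.39 (Nop53) and 1.04 (Nol8).

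Of the 5 RNA polymerase I subunits, 4 were higher at 44 to 50 h than at 36 to 42 h, with a median change of 0.43 over the 5. Polr1b, the second largest subunit of the enzyme, had log2 values of 7.62, 7.93, 7.93 and 8.08 at 44, 46, 48 and 50 h, against 7.31, 7.35, 6.98 and 7.36 at 36, 38, 40 and 42 h. The blocks did not overlap, and the change was 0.64 ± 0.13 (SE, limma adjusted p = 0.000596). Polr1a, the largest subunit, had 6.70, 7.26, 7.34 and 7.22 at 44 to 50 h, against 6.47, 6.66, 6.40 and 6.90 at 36 to 42 h. These blocks overlapped, since 44 h lay below 42 h, and the change was 0.53 ± 0.16 (limma adjusted p = 0.0158). The call was lost without the 40 h array (0.46, adjusted p = 0.0538), without that at 48 h (adjusted p = 0.0559), or in its second probe set (0.32, adjusted p = 0.116).

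Polr1e, whose product is an accessory subunit of the enzyme, had 8.71, 8.83, 8.77 and 8.72 at 44 to 50 h, against 8.60, 8.32, 8.06 and 8.32 at 36 to 42 h. All 4 later arrays lay above the earlier ones, by 0.43 ± 0.11 on average (limma adjusted p = 0.00364). Polr1c and Polr1d encode subunits that RNA polymerase I shares with RNA polymerase III. Polr1c was higher by 0.27 (adjusted p = 0.00267). Polr1d was at 12.11, 12.01, 11.95 and 12.18 at 44 to 50 h, against 11.96, 11.94, 11.96 and 12.31 at 36 to 42 h, and its change of 0.02 ± 0.07 was not called (adjusted p = 0.855). Of its 3 other probe sets 1 was lower, by 0.17 on the log2 scale (−0.17, adjusted p = 0.0265), and the sign of the main one turned to −0.05 when arrays were centred on their medians.

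The box C/D small nucleolar RNPs guide the methylation of ribosomal RNA. Their scaffold proteins Nop56 and Nop58 were both called. Nop56 had 11.62, 12.27, 11.84 and 12.06 at 44 to 50 h, against 11.09, 11.05, 11.30 and 11.02 at 36 to 42 h, a change of 0.83 ± 0.11 (limma adjusted p = 4.30e-06). Nop58 had 11.95, 12.35, 11.85 and 12.45 at 44 to 50 h, against 11.37, 11.44, 10.93 and 11.49 at 36 to 42 h, a change of 0.84 ± 0.17 (adjusted p = 0.000633). In both genes the blocks did not overlap. Fbl, fibrillarin, the methyltransferase of the particle, had 12.12, 12.57, 12.29 and 12.32 at 44 to 50 h, against 12.04, 11.96, 12.17 and 12.26 at 36 to 42 h. Its blocks overlapped and its change of 0.22 ± 0.09 was not called (adjusted p = 0.0828), while its second probe set gave 0.28 (adjusted p = 0.0291). Whether Fbl differed from Nop56 and Nop58 in its change was not tested.

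The box H/ACA particles convert uridines of ribosomal RNA to pseudouridine, and 3 of their 4 proteins were higher at 44 to 50 h. Gar1 had 10.68, 11.02, 10.81 and 10.99, against 10.05, 10.18, 10.40 and 10.34 at 36 to 42 h, a change of 0.64 ± 0.10 (limma adjusted p = 3.05e-05). Dkc1, dyskerin, the pseudouridine synthase itself, had 10.86, 11.27, 11.20 and 11.50 at 44 to 50 h, against 10.73, 10.66, 10.45 and 10.79 at 36 to 42 h, a change of 0.55 ± 0.11 (adjusted p = 0.000835). Neither gene's blocks overlapped. Nhp2 was higher by 0.26 ± 0.10 with overlapping blocks (adjusted p = 0.0484). Nop10, the smallest protein of the particle, had 12.20, 12.35, 12.36 and 12.35 at 44 to 50 h, against 12.19, 12.33, 12.80 and 12.53 at 36 to 42 h. It was highest on the 40 h array, and its change of −0.14 ± 0.09 was not called (adjusted p = 0.215). Without that array it was −0.03 (adjusted p = 0.793), and without the 36 h array −0.24 and called (adjusted p = 0.0295).

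Small subunit factors made up 23 of the 55 genes. Of these, 12 were higher at 44 to 50 h, 1 was lower and 10 were not called, with a median change of 0.27. Rrp12, which in yeast is needed for the maturation and export of pre-ribosomes, had the widest change of all 55. It had 7.12, 7.69, 7.77 and 7.24 at 44, 46, 48 and 50 h, against 6.55, 6.29, 5.65 and 6.30 at 36, 38, 40 and 42 h. The 40 h array was its lowest of the whole course, and every later array of the pair of blocks lay above every earlier one (1.26 ± 0.19, limma adjusted p = 3.75e-05). Without the 40 h array the change was 1.08 (adjusted p = 0.000213).

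Utp15 belongs to the subcomplex of the processome that also acts in transcription of the precursor. It had 9.63, 9.90, 10.00 and 9.95 at 44 to 50 h, against 9.26, 9.32, 8.64 and 8.69 at 36 to 42 h, a change of 0.89 ± 0.13 (limma adjusted p = 1.96e-05). Nop14, a component of the small subunit processome, had 9.69, 10.01, 9.92 and 9.94 at 44 to 50 h, against 8.99, 9.08, 8.91 and 9.13 at 36 to 42 h, a change of 0.86 ± 0.10 (adjusted p = 2.21e-06). Neither gene's blocks overlapped, and the 4 earlier values of Nop14 differed less among themselves than from any later one. Nol10 (0.84, and 0.61 without the 40 h array), Rrp9 (0.76), a protein of the U3 small nucleolar RNP, Utp20 (0.73), Utp25 (0.53), Utp18 (0.48), Utp14a (0.45), Utp11 (0.29), Nol11 (0.27) and Utp4 (0.25) were also higher.

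Imp3, which in yeast helps the U3 RNA to pair with the precursor, went the other way. It had 10.82, 10.66, 10.57 and 10.66 at 44 to 50 h, against 10.81, 10.83, 10.96 and 11.19 at 36 to 42 h, a change of −0.27 ± 0.09 (limma adjusted p = 0.0188). Its blocks overlapped, the array at 42 h was the highest of its whole course, and the call was lost without that array (−0.19, adjusted p = 0.0813), without the 48 h array (adjusted p = 0.0626) and with no filter (adjusted p = 0.0516). Its partner Imp4 was at 0.16 and was not called (adjusted p = 0.0938). Nop9 had the smallest change of the role, −0.01 ± 0.09 (adjusted p = 0.967), with 8.81, 8.87, 8.52 and 8.85 at 44 to 50 h, against 8.69, 8.77, 8.71 and 8.91 at 36 to 42 h. Utp3 and Rrp36 were both at −0.19 and were not called (adjusted p = 0.0714 and 0.091). Rrp36 was called lower without the 40 h array, as given above, with quantile normalization (−0.25, adjusted p = 0.0154) and with median centring (−0.26, adjusted p = 0.0117).

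Large subunit factors made up 17 of the genes. At 44 to 50 h 12 were higher than at 36 to 42 h, 1 was lower and 4 were not called, with a median change of 0.43. Nol8, a nucleolar protein, had 8.77, 9.21, 9.30 and 9.42 at 44 to 50 h, against 8.23, 8.14, 7.98 and 8.17 at 36 to 42 h, a change of 1.04 ± 0.11 (limma adjusted p = 1.79e-07). No array before 44 h reached its level at 44 h or later, the highest being 8.56 at 14 h. Its 2 other probe sets gave 0.96 and 0.97.

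Gnl3, nucleostemin, a nucleolar GTPase known from stem and tumour cells, had 10.99, 11.41, 11.19 and 11.25 at 44 to 50 h, against 10.28, 10.38, 10.52 and 10.41 at 36 to 42 h, a change of 0.81 ± 0.09 (limma adjusted p = 5.02e-07). Its relatives Gnl3l and Gnl2 were higher by 0.34 and 0.41 (adjusted p = 0.00524 and 0.0336). Wdr12, Bop1 and Pes1 encode the 3 proteins of the PeBoW complex. Wdr12 had 9.25, 9.73, 9.51 and 9.47 at 44 to 50 h, against 8.66, 8.70, 8.59 and 8.72 at 36 to 42 h, a change of 0.82 ± 0.09 (adjusted p = 4.45e-07).

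The other PeBoW proteins were not called. Bop1 had 9.74, 10.01, 9.87 and 9.64 at 44 to 50 h, against 9.83, 9.71, 9.65 and 10.23 at 36 to 42 h, and the blocks overlapped throughout (−0.04 ± 0.10, limma adjusted p = 0.783). Pes1 was at 0.18 (adjusted p = 0.122), although its other probe set was called at 0.47 (adjusted p = 0.00287). Differences in change between the 3 proteins were not tested. The 12 called genes also include Rrp8 (0.63), Nip7 (0.59), Rrp1b (0.59), Rrp15 (0.56), Nol9 (0.43), Nop16 (0.43) and Nop2 (0.36). Nol9 encodes a kinase of RNA ends in the spacer between the large subunit RNAs, and Nop2 a methyltransferase of ribosomal RNA.

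Nop53, which in yeast brings the nuclear exosome to the pre-ribosome, was the large subunit factor that was lower. It had 11.69, 11.34, 11.38 and 11.30 at 44 to 50 h, against 11.67, 11.62, 11.97 and 12.03 at 36 to 42 h, a change of −0.39 ± 0.09 (limma adjusted p = 0.00199). The array at 44 h lay among the earlier ones, and those at 40 and 42 h were the highest of the course. Without the 40 h array the change was −0.34 (adjusted p = 0.0106). Its other probe set was also lower (−0.34, adjusted p = 0.00979). Set against 28 to 34 h, Nop53 was lower at 52 to 58 h too, with 11.18, 11.35, 11.47 and 11.49, against 11.73, 11.68, 11.70 and 11.74 (−0.34 ± 0.09, adjusted p = 0.00491), and those blocks did not overlap.

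Nucleolin and nucleophosmin are abundant nucleolar proteins that act at several steps. Ncl had 14.21, 14.69, 14.61 and 14.55 at 44 to 50 h, against 13.79, 13.83, 13.78 and 13.87 at 36 to 42 h, a change of 0.70 ± 0.07 (limma adjusted p = 1.33e-07). The earlier 4 arrays lay within a narrow band and the later 4 clearly above it. Npm1 had 14.90, 14.96, 14.90 and 15.02 at 44 to 50 h, against 14.68, 14.65, 14.55 and 14.66 at 36 to 42 h, a change of 0.31 ± 0.05 (adjusted p = 2.60e-05). Nol4l, which shares only the name, was at 0.03 ± 0.07 (adjusted p = 0.775), with 10.76, 10.69, 10.63 and 10.66 at 44 to 50 h, against 10.72, 10.66, 10.59 and 10.64 at 36 to 42 h.

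**Figure D3:**
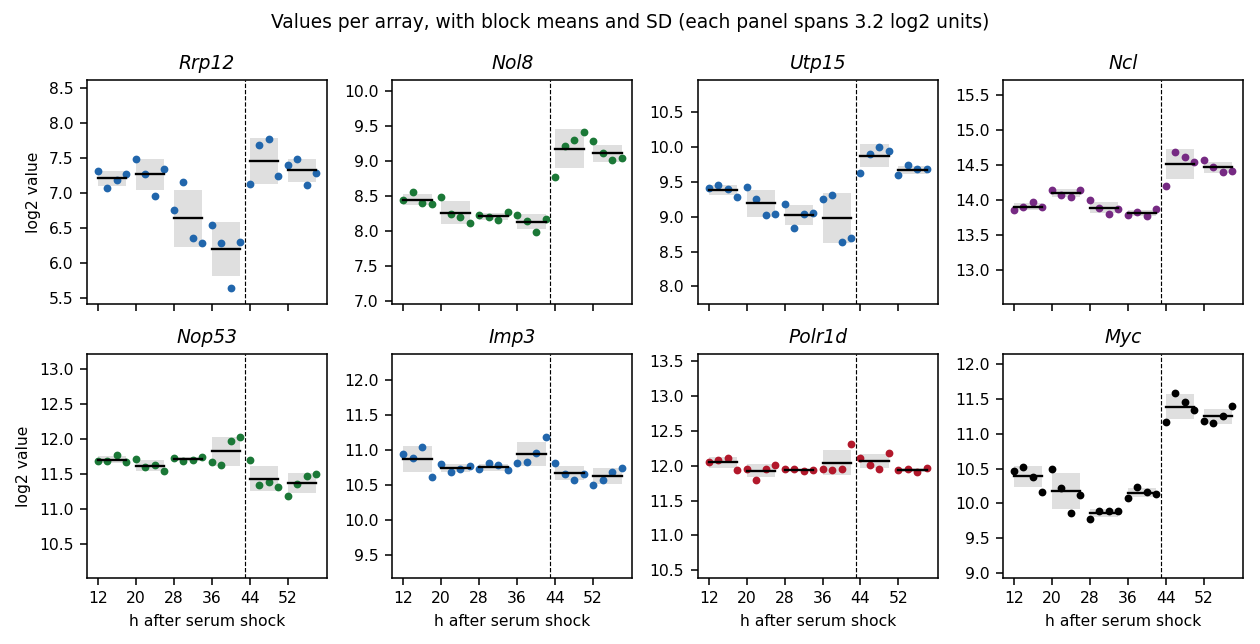
Log2 value on each array (points) for Rrp12, Nol8, Utp15, Ncl, Nop53, Imp3, Polr1d and Myc against hours after the serum shock, with block means (lines) and SD over the 4 arrays of a block (grey), every panel 3.2 log2 units tall. Rrp12, Nol8, Utp15, Ncl and Myc stand higher from 44 or 46 h on, Nop53 and Imp3 peak at 42 h, and Polr1d is flat apart from 42 h.

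Probe sets that were not used to represent a gene gave a second reading. In 30 of the genes, 45 such probe sets passed the filter, and 41 had the sign of the representative in this comparison. Of 26 belonging to genes called by their representative, 23 were called in the same direction. The 4 with the opposite sign include the Polr1d probe set given above.

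Before 44 h the mean deviation of the 55 fell most between 20 to 26 h (−0.03) and 28 to 34 h (−0.21). At 20 to 26 h, against 12 to 18 h, Npm1 was higher (0.18 ± 0.05, limma adjusted p = 0.00968) and Rrp9 lower (−0.63 ± 0.21, adjusted p = 0.0499, a call lost in 20 of 24 omissions of 1 array and with no filter, where adjusted p = 0.146), and the other 53 genes were not called, while 6.95% of all genes were higher and 6.12% lower. At 28 to 34 h, against 20 to 26 h, limma called none of the 55, against 0.0712% of all genes higher and 0.0509% lower. At an unadjusted p under 0.05, 22 were lower and 0 higher at 28 to 34 h (40% and 0%, against 4.96% and 5.81% of all genes). The median change was −0.16, against 0.01 for all genes, and 14 of the 55 had all 4 arrays at 28 to 34 h below all 4 at 20 to 26 h, as did 3.87% of all genes. Without the 28 h array 5 of the 55 were called lower. Over all 9825 genes, single omissions gave 0 to 40 lower here, against 5 with every array.

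At 36 to 42 h, against 28 to 34 h, limma called none of the 55 and 0% of all genes in either direction, and at an unadjusted p under 0.05 it gave 7 of the 55 higher and 2 lower at 36 to 42 h (12.7% and 3.64%, against 8.33% and 4.66% of all genes). At 52 to 58 h, against 44 to 50 h, it also called none, against 0.0102% of all genes higher and 0.0305% lower, with 1 higher and 6 lower at an unadjusted p under 0.05 (1.82% and 10.9%, against 2.85% and 8.14% of all genes). The median change of the 55 was −0.05, against −0.03 for all genes.

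Blocks 24 h apart hold the phase of a daily rhythm constant. At 36 to 42 h, 20 genes were lower than at 12 to 18 h, 2 were higher and 33 were not called, against 12.1% of all genes lower and 14.3% higher. The median change was −0.19, against 0.00. The lower genes comprised 8 small subunit factors, 7 large subunit factors, the polymerase subunits Polr1b and Polr1e, Dkc1, Nhp2 and Nol4l, and none of the box C/D proteins, Ncl or Npm1. In 13 of the 55 the blocks did not overlap and the later one lay below, as in 8.96% of all genes. The count rests on the early arrays and on that at 40 h. It was 8 without the 12 h array, 11 without 14 h, 12 without 16 h, 11 without 40 h and 24 without 18 h. Over all 9825 genes, single omissions gave 775 to 1329 lower, against 1193 with every array. With arrays 24 h apart paired by clock phase, a fit on 8 arrays added after the data were seen, 3 were lower and 0 higher. Calls over all genes were not counted in that fit.

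Rrp12 again had the widest change, with 6.55, 6.29, 5.65 and 6.30 at 36 to 42 h, against 7.31, 7.06, 7.19 and 7.27 at 12 to 18 h (−1.01 ± 0.19, limma adjusted p = 0.0005). Rrp15, a large subunit factor, had 9.12, 8.96, 8.95 and 9.13 at 36 to 42 h, against 9.77, 9.84, 9.83 and 9.30 at 12 to 18 h (−0.64 ± 0.12, adjusted p = 0.000388). All arrays of the later block lay below those of the earlier one in both genes. Utp23 (0.31) and Utp3 (0.23) were higher at 36 to 42 h (adjusted p = 0.0399 and 0.0396).

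At 52 to 58 h, 37 genes were higher than at 28 to 34 h, 2 were lower and 16 were not called, against 21% of all genes higher and 15.3% lower. The median change was 0.38, against 0.03, and in 32 genes all 4 later arrays lay above the earlier 4, as in 23.6% of all genes. Rrp9 had 7.64, 7.66, 7.60 and 7.75 at 52 to 58 h, against 6.55, 6.20, 6.65 and 6.68 at 28 to 34 h (1.14 ± 0.21, limma adjusted p = 0.000196). Fbl, not called across 42 to 44 h, had 12.30, 12.42, 12.53 and 12.54 at 52 to 58 h, against 12.18, 12.15, 11.98 and 11.90 at 28 to 34 h (0.40 ± 0.09, adjusted p = 0.00242). Neither gene's blocks overlapped. Nol4l, the second lower gene beside Nop53, was at −0.25 (adjusted p = 0.0102).

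These 2 comparisons share no array. Of the 20 genes lower at 36 to 42 h than at 12 to 18 h, 16 (80%) were among the 37 higher at 52 to 58 h than at 28 to 34 h, which is 43.2% of the 37. Of all 55 genes 67.3% were higher in the second comparison, and of the 1193 genes lower in the first 23.5% were. Whether the comparisons are linked gene by gene was not tested. At 52 to 58 h the mean lay above that at 12 to 18 h in 34 of the 55 genes (61.8%, against 54.6% of all genes).

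A straight line with a 24 h cosine gave 17 genes that rose over the 46 h, 4 that fell and 34 not called, against 26.3% of all genes that rose and 16.4% that fell. The share of the 55 that rose is thus close to that of all genes. The median over the 55 was 0.18, against 0.07. Nop14 rose by 0.99 ± 0.20 over the 46 h (limma adjusted p = 0.00048), Nol8 by 0.90 ± 0.25 (adjusted p = 0.00569) and Nop56 by 0.86 ± 0.21 (adjusted p = 0.00219). In its second probe set Nol8 was at 0.46 and not called (adjusted p = 0.148). Bop1 (−0.36 ± 0.13), Nol4l (−0.35 ± 0.07), Rrp36 (−0.24 ± 0.09) and Utp6 (−0.21 ± 0.08) fell. The call of Rrp36 was lost with no filter (adjusted p = 0.0733) and in 12 of the 24 omissions of 1 array, and that of Bop1 with no filter (adjusted p = 0.0671), without 12 h (adjusted p = 0.0824) and without 44 h (adjusted p = 0.0546). The line describes the course poorly: without the arrays at 44 to 58 h none of the 55 rose and 24 fell, and Nop14, Nol8 and Nop56 had fitted changes of −0.12, −0.61 and −0.33. The share of all genes in that fit was not counted.

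No gene of the 55 was called rhythmic with a 24 h period by limma, against 2.77% of all genes, and 9 had an unadjusted p under 0.05 (16.4%, against 20.6% of all genes). Npm1 (amplitude 0.12 ± 0.03, first peak at 26.4 h, adjusted p = 0.0516), Ncl (0.20 ± 0.05, 24.5 h, adjusted p = 0.0612) and Rrp7a (0.15 ± 0.04, 17.1 h, adjusted p = 0.0999) came closest. With a quadratic in place of the linear term 19 were called, and without the arrays at 44 to 58 h 5. The count therefore depends on how the slower course is fitted, and the share of all genes in these fits was not counted.

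The genes resembled each other over the 24 arrays, on which they share each array's scaling and the time course. The median pairwise Pearson r was 0.485, given as a description, and 33 of the 55 had an r of at least 0.7 with the mean of the others. Nip7 (0.968), Utp18 (0.952) and Gnl3 (0.950) were the most like that mean. Nop53 (−0.666), Utp3 (−0.619), Imp3 (−0.332), Nol4l (−0.257), Rrp1 (−0.234), Rrp36 (−0.184) and Nop10 (−0.069) had values below 0.

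Further factors of the pathway came from lists that hold none of the 55. Of 89 past the filter, 60 were higher at 44 to 50 h than at 36 to 42 h and 1 was lower, with a median change of 0.38. These are 67.4% and 1.12%, against 20.5% of all genes higher and 12.7% lower. Among 10 further genes of RNA polymerase I transcription, 5 were higher, among them the polymerase subunit gene Twistnb (0.69) and the promoter factor genes Taf1b (0.43) and Taf1d (0.50). Of 32 further small subunit factors 24 were higher, with Wdr43 at 0.82, Mphosph10 at 0.75 and Wdr75 at a mean of 10.90, against 9.90 at 36 to 42 h, and of 47 further large subunit factors 31, with Noc3l at 0.79, the helicase gene Ddx18 at 0.64 and Rsl1d1 at 0.49. The nuclear exosome, which trims ribosomal RNA ends and degrades other RNAs, was counted apart from the 89. Of its 13 genes past the filter 3 were higher (Exosc1 at 0.51, Exosc9 at 0.40 and Exosc4 at 0.26) and 1 lower (Exosc8 at −0.27), with a median of 0.08. The share higher, 23.1%, was thus close to that of all genes, and the share lower was 7.69%.

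In this comparison the genes of the ribosomal proteins themselves lay closer to the count for all genes, a difference that was not tested. Of 45 cytosolic ribosomal protein genes, 8 were higher at 44 to 50 h (17.8%) and 1 lower (2.22%), with a median of 0.03. Of 76 mitochondrial ones 11 were higher (14.5%) and 13 lower (17.1%), with a median of 0.01. Among all genes 20.5% were higher and 12.7% lower. Over the whole course 24 of the 45 cytosolic ribosomal protein genes rose (53.3%, against 26.3% of all genes), with a median of 0.19. At 52 to 58 h, 19 of them were higher than at 28 to 34 h and 0 lower (42.2% and 0%, against 21% and 15.3% of all genes).

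**Figure D4:**
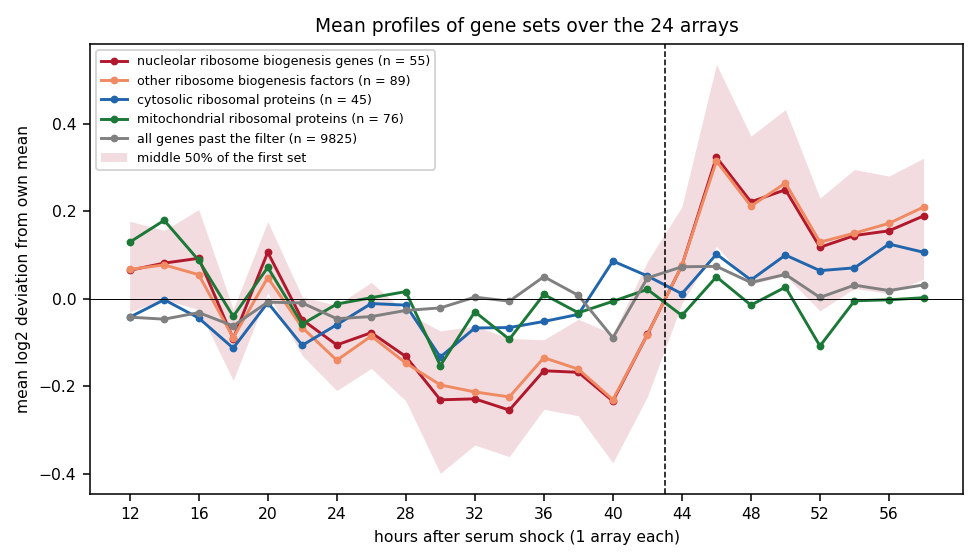
Mean deviation from each gene's own mean log2 value against hours after the serum shock, for the 55 nucleolar genes (band: middle 50% of them), 89 other ribosome biogenesis factors, 45 cytosolic and 76 mitochondrial ribosomal protein genes and all 9825 genes. The first pair of lines lies lowest at 30 to 40 h and highest at 46 h, while the other 3 stay between −0.15 and 0.18.

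Myc, a transcription factor that acts on many genes of this pathway, was higher in the same comparison. It had 11.16, 11.58, 11.46 and 11.34 at 44 to 50 h, against 10.08, 10.23, 10.16 and 10.14 at 36 to 42 h, a change of 1.23 ± 0.10 (limma adjusted p = 6.32e-09). All 4 later arrays lay about a doubling above the earlier ones. Of its network, 10 of 11 genes passed the filter. Mnt was also higher (0.34), Mxd4 (−0.65) and Mxd3 (−1.78) were lower, and Max (0.41), Mxd1 (−0.48), Mycn (−0.17), Mxi1 (−0.20), Mlx (−0.15) and Mga (0.34) were not called.

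Other groups moved at the same time. All 19 genes of the amino acid response were higher at 44 to 50 h than at 36 to 42 h, with a median of 2.32 and with Chac1 at 5.64, Trib3 at 4.74 and Slc7a5 at 3.22. Of 15 proliferation genes 7 were lower and none higher (median −0.61, with Plk1 at −1.39). Among all genes 20.5% were higher and 12.7% lower. The proliferation genes had also changed earlier: all 15 were higher at 20 to 26 h than at 12 to 18 h, against 6.95% of all genes. Of 8 hepatocyte markers 3 were lower (Ttr at −0.98, Alb at −0.41 and Hnf4a at −0.39) and 2 higher (Ahsg at 1.04 and Rbp4 at 0.25). The part of Myc, the amino acid response, proliferation or cell state in the change of the ribosome biogenesis genes was not tested.

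The letters CACGTG, shown in the promoters of Utp18, Nop2 and Nol11, were about as frequent in promoters of the genes higher at 44 to 50 h (6 of 30, 20%) as in those of the other genes (3 of 14, 21.4%). Utp18 itself was at 10.68, 10.94, 10.80 and 10.82 at 44 to 50 h, against 10.40, 10.28, 10.31 and 10.33 at 36 to 42 h. Nop2 was at 9.81, 10.16, 10.05 and 9.94 at 44 to 50 h, against 9.41, 9.55, 9.63 and 9.92 at 36 to 42 h, and Nol11 at 10.19, 10.17, 10.21 and 10.28, against 10.04, 10.08, 9.74 and 9.92. The blocks of Nop2 overlapped and those of Utp18 and Nol11 did not. The letters TGATGNAA on either strand, a motif of the amino acid response, were searched too, and this motif was chosen after the values were seen. It stood in 2 of the 44 genes (4.55%), against 2.58% of genes past the filter, and in 7 of 17 amino acid response genes with a promoter in the table (41.2%).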

How the data were processed

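The authors deposited a table of log2 values, 1 for each probe set and array. GCRMA made it, per the submitters' processing notes, with a version and settings not given in the sources used here. That the scale is log2 was read from the range of the values. Of 45101 probe sets, 64 controls among them, GEO's platform annotation gives 1 symbol for 34958, several for 932 and none for 9211. A gene was its probe set of highest mean. Probe sets with log2 of at least 5 on at least 6 of 24 arrays were kept (18526, 9825 genes).

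limma 3.58.1 in R 4.3.3 fitted means of 6 blocks of 4 arrays, and in a second model a linear change with the cosine and sine of 24 h, both with a variance prior that follows intensity. The tests were checked on simulated data. Alternatives were no filter, quantile normalization, median centring, 1 variance prior, the second probe set, other trends, arrays left out and, added after the data were seen, pairing by clock phase.

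The members, gene lists, blocks and motifs were chosen with earlier results of these data known. Array values are given, for each role, for the members of largest and of smallest change across 42 to 44 h, for those of largest trend or smallest rhythm p, and for called members against their role's median, and from each other list for the genes of smallest p. Other genes shown array by array were chosen after their values were seen.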

Additional observations from a re-analysis of the deposited data

Results flagged for a closer look

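Within the block from 12 to 18 h, the 18 h array lay apart from the other 3 in the mean deviation of the 55 genes. It stood at −0.09, against 0.06 to 0.09 on the arrays at 12, 14 and 16 h. The gap to the nearest array was 0.851 of the block's range, past Dixon's limit for 4 values. The 6 blocks were tested in this way, and chance flags about 1 in 20. Without the 18 h array 24 genes, rather than 20, were lower at 36 to 42 h than at 12 to 18 h.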

How the results depend on the processing

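With 1 array per time the only error is the scatter within blocks, and the spread between cultures is unknown. The 35 higher genes at 44 to 50 h against 36 to 42 h stayed within 1.5 times that count under every alternative run, and so did the 37 at 52 to 58 h against 28 to 34 h. Smaller counts moved, and the cause was not tested.

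With no filter, 0 genes were lower at 20 to 26 h against 12 to 18 h, 1 was lower across 42 to 44 h, 0 were higher and 10 lower at 36 to 42 h against 12 to 18 h, and 1 fell over 46 h. With quantile normalization, and likewise with median centring, 1 was lower at 28 to 34 h against 20 to 26 h, 4 lower across 42 to 44 h, 1 higher at 36 to 42 h against 12 to 18 h and 1 rhythmic. Across 42 to 44 h the signs of Nol4l (−0.0162 and −0.036) and Rrp7a (−0.0191 and −0.0297) then turned, as did Polr1d with centring (−0.0472) and in its second probe set (−0.17). With 1 variance prior 0 were lower at 20 to 26 h against 12 to 18 h, and with the second probe set 4, with 1 higher at 36 to 42 h against 12 to 18 h. Without 44 to 58 h the linear term gave 0 that rose and 24 that fell, with Nop56 (−0.33), Nol8 (−0.61) and Nop14 (−0.12) turned, and without 12 to 18 h 35 that rose and 2 that fell. Rhythm calls were 5 without 44 to 58 h, 1 with no linear term and 19 with a quadratic. Shares of all genes were not counted for these trend and rhythm fits.

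Leaving out each array in turn gave 32 (without 40 h) to 38 higher and 1 (without 48 h) to 3 lower across 42 to 44 h. At 20 to 26 h against 12 to 18 h it gave 0 to 2 higher and 0 to 4 lower, and at 28 to 34 h against 20 to 26 h 0 to 5 lower. In the latter comparison 0 to 40 of all genes were lower. At 36 to 42 h against 12 to 18 h it gave 0 to 2 higher and 8 to 24 lower. Of all genes 775 to 1329 were then lower. At 52 to 58 h against 28 to 34 h it gave 31 to 39 higher and 2 lower each time. Between 14 and 22 rose and 1 (without 12 h or 44 h) to 5 fell over 46 h, and 0 to 2 were rhythmic. The changes of Bop1 (−0.11 to 0.0819), Nop9 (−0.0432 to 0.0752), Polr1d (−0.0194 to 0.11) and Rrp7a (−0.0151 to 0.0976) across 42 to 44 h changed sign. Pairing by replicate was not possible because the labels give no shared replicate numbers. Pairing arrays 24 h apart by clock phase, a fit on 8 arrays added after the data were seen, gave 0 higher and 3 lower at 36 to 42 h against 12 to 18 h, and 36 higher and 1 lower at 52 to 58 h against 28 to 34 h.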
